A study of Homo sapiens with 12 samples.

Results

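Ribosome biogenesis and RNA polymerase I genes were examined as a list of 45 nucleolar genes taken by their known function, in the human erythroleukemia cell line K-562. The list holds 9 proteins of small nucleolar ribonucleoproteins (snoRNPs), the 2 abundant nucleolar proteins NCL and NPM1, 6 proteins of RNA polymerase I transcription, 14 small subunit assembly factors and 14 large subunit assembly factors. A row was matched for 44 of the 45 among the 60658 rows of the deposited table, and all 44 were among the 13393 genes that passed the filter on low values. BOP1, a large subunit factor, was not analysed here. RNA sequencing was done 24 hours after siRNA transfection in 4 groups of 3 libraries. The D152V_Rescue group was a stable line expressing 3xTY-D152V, a tagged MYB with the amino acid change D152V, and received si2992, the siRNA against MYB. The MYB-WT_Rescue group was a second stable line, expressing tagged wild-type MYB (3xTY-hcM), and received the same siRNA. The MYB_KnockDown group was a line carrying the 3xTY1 tag alone and received si2992 as well. The siRNA_Control group was that 3xTY1 line with a siGENOME non-targeting siRNA. All groups are G418-selected lines with 1 line named per construct, so an effect of the construct and of its line cannot be told apart, and no untransfected cells enter a comparison. The design text describes 3 individual experiments, and p-values here measure the spread between those libraries.

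Values are FPKM, which count fragments over the length of a transcript and the size of its library, so that levels may be compared between genes per length, and read depth is unknown. Changes are differences of log2(FPKM + 1), which understates the change of low genes, with a standard error (SE). A gene was called higher or lower at a limma adjusted p under 0.05, adjusted by Benjamini-Hochberg over all 13393 genes. MYB, the targeted gene, stood at 86.6, 86.2 and 100.4 FPKM in D152V_Rescue, 132.5, 125.0 and 114.8 in MYB-WT_Rescue and 26.1, 32.9 and 31.5 in MYB_KnockDown, against 124.0, 131.9 and 104.3 in siRNA_Control. The knockdown libraries lay below all others, and MYB fell by 1.96 there (limma adjusted p = 3.03e-05). Endogenous and introduced MYB share a single value in the table. MYB_KnockDown replicate 1 stood apart from the other libraries. Its correlations with replicates 2 and 3 over tested genes were 0.93 and 0.929, against 0.983 or more for every other pair within a group, and its FPKM total was 1215578, against 672616 to 798362 in the other 11 libraries. Each leading count is therefore given in 12 libraries and in the 11 without it, a choice made after seeing the data. All 10 K-562 markers passed the filter, GATA1 with 80.8 to 138 FPKM. Their summed level was 2211.1 to 3767.9 FPKM in D152V_Rescue, 964.8 to 2010.0 in MYB-WT_Rescue, with no overlap between the rescue lines, 1779.6 to 5913.3 in MYB_KnockDown and 1362.2 to 2860.2 in siRNA_Control. Of 11 measured markers of other cell types 5 passed it, led by EPCAM and CD3D, while MS4A1 and CDH5 were listed at 0 in all 12 libraries. The summed level of those 11 markers was 113.0 to 151.8 FPKM in D152V_Rescue, 88.7 to 137.2 in MYB-WT_Rescue, 66.7 to 207.2 in MYB_KnockDown and 80.8 to 87.7 in siRNA_Control, and the part of both sums in the results was not tested.

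Ribosomes are assembled around RNA that RNA polymerase I transcribes from the ribosomal DNA repeats in the nucleolus. Small nucleolar ribonucleoproteins modify and help cut this precursor, and a large set of helicases, GTPases and scaffold proteins folds it and packs it with ribosomal proteins into the small and the large subunit. Proliferating leukemia cells keep these genes at high levels, and many of them are known targets of MYC, itself an established target of the transcription factor MYB.

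The members spanned a wide range of levels. NPM1, nucleophosmin, a chaperone and scaffold of the nucleolus, was the most abundant, with 2024.1, 2232.1 and 2134.6 FPKM in siRNA_Control, followed by NCL, nucleolin, an RNA-binding protein of the nucleolus, with 815.7, 883.3 and 804.0 FPKM. The snoRNP proteins NOP10 and FBL came next, with control means of 346 and 284 FPKM. POLR1A, the largest subunit of RNA polymerase I, was the lowest at 14.9, 17.3 and 15.6 FPKM, and the median control mean of the 44 members was 73.5 FPKM. Spread between replicates differed by group. The coefficient of variation had a median over members of 5.69% in D152V_Rescue, 8.72% in MYB-WT_Rescue and 24.1% in MYB_KnockDown, against 5.94% in siRNA_Control. Between MYB_KnockDown replicates 2 and 3 alone the median was 4.50%.

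**Figure D1:**
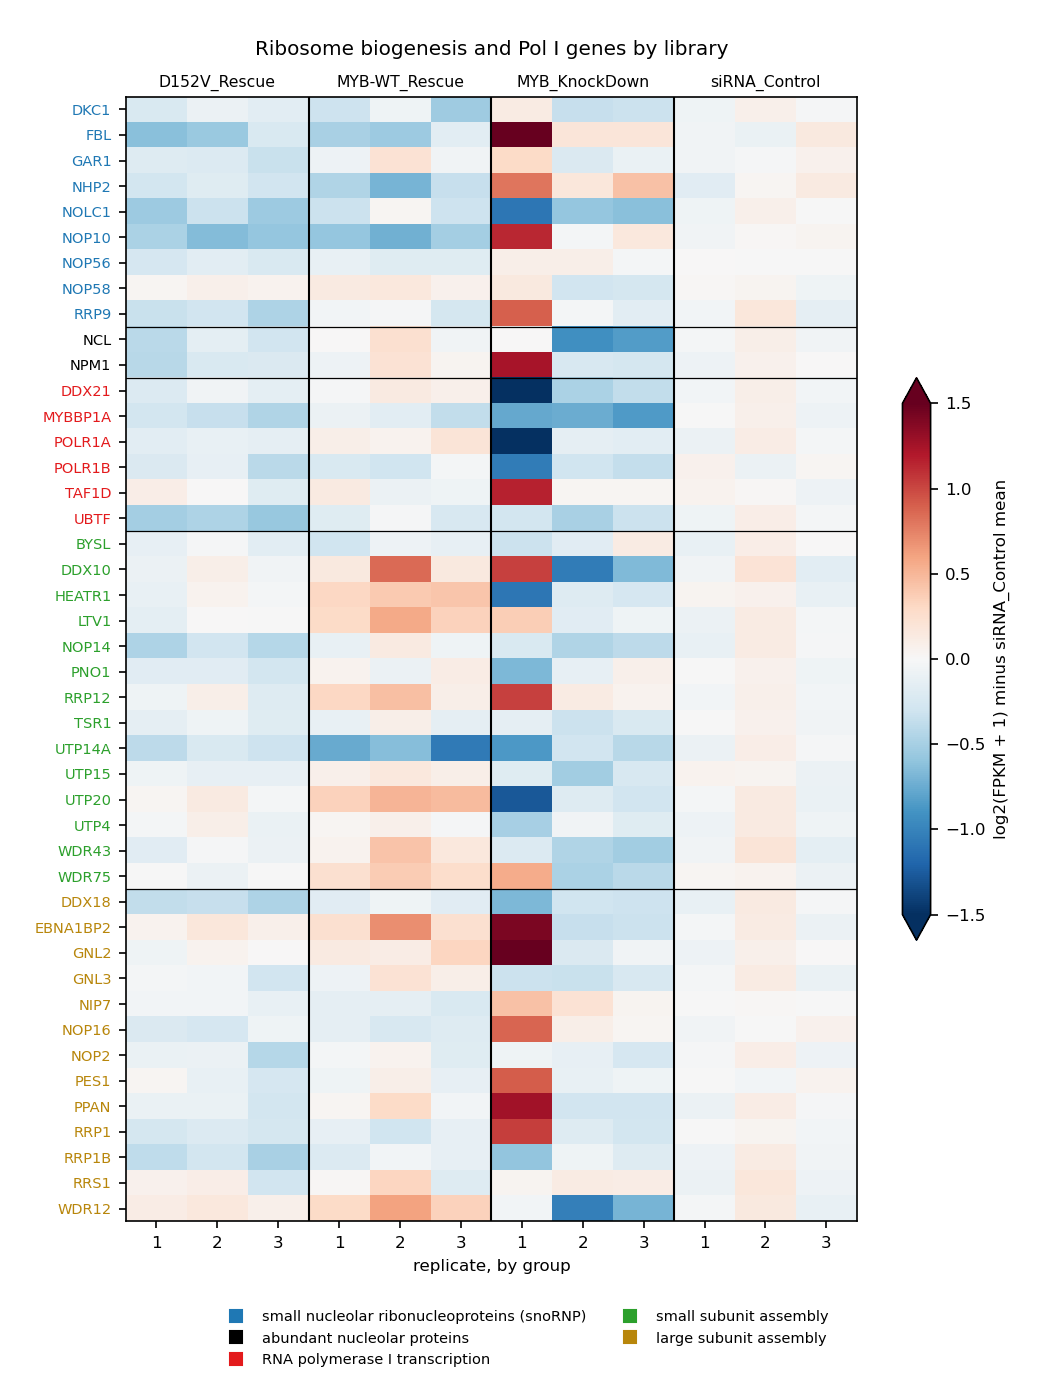
Colour shows log2(FPKM + 1) minus the siRNA_Control mean for each of the 44 members (rows, grouped by role) in each of the 12 libraries (columns); the scale ends at 1.5, and values beyond it take the end colour. The first MYB_KnockDown column runs from -1.50 to 1.86, while the other knockdown columns are mostly pale blue.

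Promoter windows were read from RefSeq (GRCh38.p14), which matched 38 of the 44 members. The 250 bases before each start site were searched on both strands for the E-box CACGTG, the site bound by MYC and its partner MAX, and for AACNG, the core of the MYB site. The motifs cannot overlap as spelled. An E-box lay in 6 of 38 members (15.8%), against 11.3% of 9585 tested genes with a window and 7.7% of all genes in the table. AACNG lay in 29 of 38 members (76.3%), against 74.7% and 74.6%. A match is only a match of letters. The upstream windows of 3 members are printed as examples of members called in MYB-WT_Rescue against MYB_KnockDown, chosen after their values were seen. Each runs in the strand direction of the gene, 5′ to 3′, with every match of either motif on either strand in capitals. MYBBP1A is a nucleolar protein named for its binding to MYB, and its window lies on the minus strand at chr17:4555385-4555634, with AACCG beginning 25 bases before the start site. UTP20, a small subunit factor, has its window on the plus strand at chr12:101279855-101280104, with an AACNG match on the other strand (CCGTT as printed) beginning 27 bases before the start site and the E-box beginning 10 bases before it. NOP10, a core protein of the H/ACA snoRNPs, has its window on the minus strand at chr15:34343137-34343386, with E-boxes beginning 170 and 11 bases before the start site and an AACNG match on the other strand (CGGTT as printed) beginning 38 bases before it.
MYBBP1A: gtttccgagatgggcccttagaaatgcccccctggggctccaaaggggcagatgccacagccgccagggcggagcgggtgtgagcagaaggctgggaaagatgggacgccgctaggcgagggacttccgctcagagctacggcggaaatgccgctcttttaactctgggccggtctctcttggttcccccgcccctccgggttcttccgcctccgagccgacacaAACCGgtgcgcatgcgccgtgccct
UTP20: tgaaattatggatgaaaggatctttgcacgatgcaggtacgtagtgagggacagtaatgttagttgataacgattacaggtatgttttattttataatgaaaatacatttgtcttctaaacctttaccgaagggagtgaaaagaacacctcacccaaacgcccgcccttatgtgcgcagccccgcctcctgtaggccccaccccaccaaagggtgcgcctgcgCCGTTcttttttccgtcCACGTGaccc
NOP10: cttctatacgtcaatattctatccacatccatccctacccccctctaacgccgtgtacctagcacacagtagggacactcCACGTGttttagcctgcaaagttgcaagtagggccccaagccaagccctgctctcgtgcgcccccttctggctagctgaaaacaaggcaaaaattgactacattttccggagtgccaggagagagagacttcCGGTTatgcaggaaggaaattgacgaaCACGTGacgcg

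Knockdown was compared with control siRNA in the 3xTY1 line, which asks how these transcripts change when MYB is depleted. In 12 libraries 4 of 44 members fell and 0 rose by limma, against 7.38% and 3.94% of all tested genes, and at an unadjusted p under 0.05 the counts were 16 lower and 1 higher, against 18.5% and 13.5% of all genes. The 4 were MYBBP1A, NOLC1, DDX18 and UBTF. In 11 libraries 14 fell and 0 rose, against 12.9% and 7.26% of all genes, with 24 and 1 at an unadjusted p under 0.05 (20.8% and 13.2% of all genes). The median member lay at -0.16 and the median gene at -0.03, or -0.24 and -0.04 in 11 libraries. Levels of the knockdown and control groups did not overlap for 15 lower and 3 higher members in 12 libraries (21.3% and 15.2% of all genes), and for 28 and 3 in 11 libraries (30.9% and 21.5%). Fewer cells of one kind and less RNA per cell cannot be told apart in bulk samples.

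The RNA polymerase I group had the lowest median of the roles in 12 libraries, -0.58, with 2 of 6 members called lower. Most of this group is long: MYBBP1A, DDX21, UBTF, POLR1B and POLR1A have canonical transcripts of 4558 to 12480 bases. Members of 4000 bases or more had a median difference of -0.68 in MYB_KnockDown replicate 1, and the part of length in this rank was not tested. In 11 libraries the median of the RNA polymerase I group was -0.36 with 3 called lower, and the NCL and NPM1 pair had the lowest, -0.57. MYBBP1A (ENSG00000132382; GRCh38 chromosome 17, 4538904 to 4555384) had 36.7, 37.5 and 34.7 FPKM in MYB_KnockDown, against 62.9, 66.9 and 60.2 in siRNA_Control. Every knockdown library, replicate 1 included, was well below every control library, and MYBBP1A fell by 0.79 (SE 0.11, limma adjusted p = 0.00373). Of 23 alternatives 1 ended the call, the fit to the 6 libraries compared (adjusted p = 0.112, with 2.41e-04 to 0.112 over alternatives). UBTF, the factor that opens and marks active ribosomal DNA, had 51.3, 44.4 and 49.6 FPKM in MYB_KnockDown and 59.6, 66.9 and 60.9 in siRNA_Control. The groups did not overlap, yet the gap was small: UBTF fell by 0.36 (SE 0.11, adjusted p = 0.0495), a call lost in 18 of 23 alternatives and on leaving out any library but MYB_KnockDown replicate 1 (0.00636 to 0.443). With the length trend removed the change of UBTF was -0.16 (limma adjusted p = 0.443). DDX21, a helicase of RNA polymerase I transcription and rRNA processing, had 96.7, 197.6 and 212.9 FPKM in MYB_KnockDown and 267.6, 292.9 and 267.0 in siRNA_Control. It was the member with the second lowest change, -0.78, and did not pass in 12 libraries (adjusted p = 0.0547); without replicate 1 it stood at -0.42 and passed (0.00447, with 0.00152 to 0.242 over alternatives). POLR1A had 5.01, 14.4 and 14.2 FPKM in MYB_KnockDown and 14.9, 17.3 and 15.6 in siRNA_Control. Only replicate 1 was far from control, and the change was -0.59 (adjusted p = 0.176) or -0.14 without it (0.274, with 0.0680 to 0.881 over alternatives). POLR1B, the second catalytic subunit, had 11.5, 20.1 and 19.2 FPKM in MYB_KnockDown and 26.0, 23.3 and 25.4 in siRNA_Control, with no overlap but no call (-0.57, adjusted p = 0.0672; 0.0340 to 0.245 over alternatives).

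NCL (chromosome 2, 231453531 to 231464484) had 837.0, 439.4 and 464.3 FPKM in MYB_KnockDown, against 815.7, 883.3 and 804.0 in siRNA_Control. Replicate 1 sat among the controls, while the other knockdown libraries held 54.2% of the control mean. The change was -0.59 in 12 libraries (SE 0.22, adjusted p = 0.0984) and -0.88 in 11 (SE 0.10, adjusted p = 6.10e-04, with 2.79e-04 to 0.294 over alternatives). NPM1 had 5005.9, 1797.9 and 1771.4 FPKM in MYB_KnockDown and 2024.1, 2232.1 and 2134.6 in siRNA_Control. Replicate 1 was above every control and the other knockdown libraries below every control, and NPM1 passed in neither fit (adjusted p = 0.631 and 0.104; 0.00999 to 0.912 over alternatives). Such a split, replicate 1 above all controls and replicates 2 and 3 below them, was found in 10 members (NOP58, PES1, GAR1, WDR75, EBNA1BP2, PPAN, DKC1, RRP1, DDX10 and NPM1) and in 7.44% of tested genes. The reverse was found in 0 members and 4.24% of genes. NOLC1, a chaperone of snoRNPs, was the snoRNP member that fell. It had 74.9, 106.7 and 103.6 FPKM in MYB_KnockDown and 152.8, 168.8 and 159.0 in siRNA_Control, a change of -0.76 (SE 0.15, adjusted p = 0.0160) without overlap. Its call was lost without siRNA_Control replicates 1, 2 or 3 (0.0635, 0.0758 and 0.0519) and with only the 6 libraries compared (0.154; 6.65e-04 to 0.154 over alternatives). FBL, the methyltransferase of box C/D snoRNPs, had 1032.2, 322.4 and 322.3 FPKM in MYB_KnockDown, all above the 272.8, 264.8 and 314.6 in siRNA_Control, and did not pass (0.74, adjusted p = 0.181; 0.0738 to 0.802 over alternatives). DKC1, the pseudouridine synthase of H/ACA snoRNPs, did not pass either (-0.18, adjusted p = 0.433; 0.0259 to 0.688 over alternatives).

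Assembly factors of the small subunit had a median change of -0.24, with 0 of 14 called in 12 libraries and 6 lower in 11: DDX10, NOP14, TSR1, UTP15, WDR43 and WDR75. DDX10, a helicase, had 127.4, 29.3 and 38.9 FPKM in MYB_KnockDown and 59.8, 71.4 and 55.5 in siRNA_Control, so the group mean hid a low pair of libraries (-0.23, adjusted p = 0.728; -0.85 and 0.0130 without replicate 1, with 0.00766 to 0.988 over alternatives). Of the large subunit factors, with a median of 0.19 in 12 libraries and -0.19 in 11, DDX18 was called in 12 libraries and DDX18 and WDR12 in 11. DDX18, a helicase, had 57.0, 74.0 and 73.4 FPKM in MYB_KnockDown and 84.8, 100.2 and 90.1 in siRNA_Control, without overlap (change of -0.43, SE 0.12, adjusted p = 0.0452). In 14 of 23 alternatives DDX18 no longer passed, among them leaving out any library of siRNA_Control (0.102 to 0.165) or of either rescue group (0.0618 to 0.0712; 0.00678 to 0.225 over alternatives). WDR12, a partner of PES1 in the PeBoW complex, had 129.5, 65.3 and 81.8 FPKM in MYB_KnockDown and 130.4, 148.0 and 123.5 in siRNA_Control. Replicates 2 and 3 held 54.9% of the control mean, and the change passed without replicate 1 (-0.86, adjusted p = 0.00117) and not with it (-0.59, 0.0829; 0.00117 to 0.466 over alternatives). GNL2, a nucleolar GTPase, had the second highest change of the members, 0.50, and 417.1, 104.0 and 116.6 FPKM in MYB_KnockDown against 115.0, 127.9 and 121.6 in siRNA_Control (adjusted p = 0.395, or 0.289 and -0.14 without replicate 1; 0.119 to 0.572 over alternatives).

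**Figure D2:**
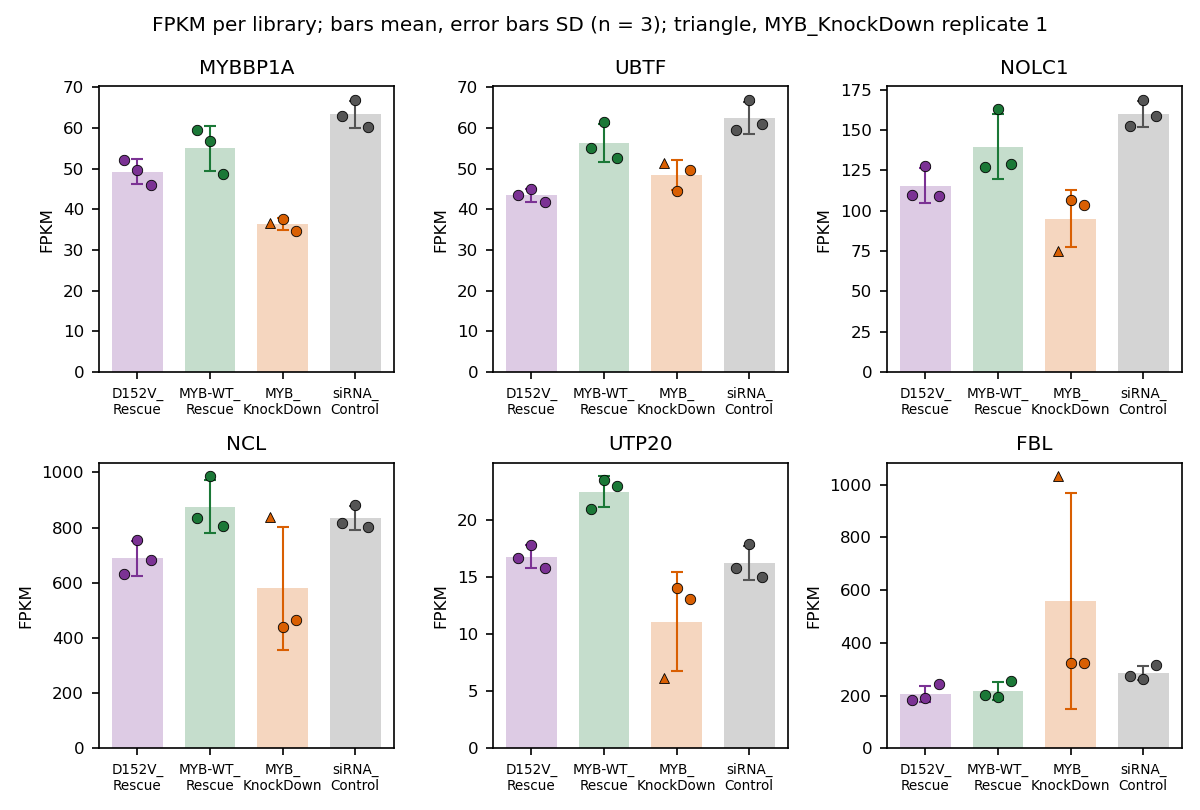
Points are FPKM of single libraries, bars the group mean and error bars the SD (n = 3) for 6 members; the triangle marks MYB_KnockDown replicate 1. MYBBP1A holds 34.7 to 37.5 FPKM in all 3 knockdown libraries, while FBL and NCL differ between replicate 1 and the others.

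Transcript length tracked the members' difference from control in the knockdown libraries. Members have canonical transcripts of 507 to 12480 bases, with a median of 2488, against 2806 over tested genes. In MYB_KnockDown replicate 1 the 15 members under 2000 bases had a median difference of 0.80, the 17 members from 2000 to under 4000 bases one of 0.01, and the 12 members of 4000 bases or more one of -0.68. In that library 10 members lay over 2-fold above the control mean and 6 over 2-fold below it. The share of all tested genes past 2-fold was not counted. The SD of the log2 differences in that library was 0.88 over members and 0.98 over all tested genes, so such spread was not particular to the members. Replicates 2 and 3 had -0.03 and -0.03 in the short class, -0.29 and -0.31 in the middle class and -0.31 and -0.27 in the long class. Across the 44 members, as a description, Spearman's rho with length was -0.64, -0.52 and -0.58 in MYB_KnockDown replicates 1, 2 and 3, against -0.46, -0.25 and -0.21 over 13098 genes with a length. These points share libraries and a control mean. In the other groups rho of the members ran from 0.03 to 0.11 in D152V_Rescue and 0.26 to 0.33 in MYB-WT_Rescue, and the 3 control libraries, each against the mean of the other 2, had 0.22, 0.29 and -0.40. With the length trend of each library removed, 3 members fell and 0 rose in the knockdown in 12 libraries (6.24% and 3.74% of all genes), and 15 fell and 0 rose in 11 (11.1% and 6.09%). Ribosomal protein genes, which are short and not members, made up 23.2%, 16.9% and 16.1% of all FPKM in the 3 knockdown libraries in replicate order, against 12.1% to 14.3% in siRNA_Control, and the part of this in the results was not tested.

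**Figure D3:**
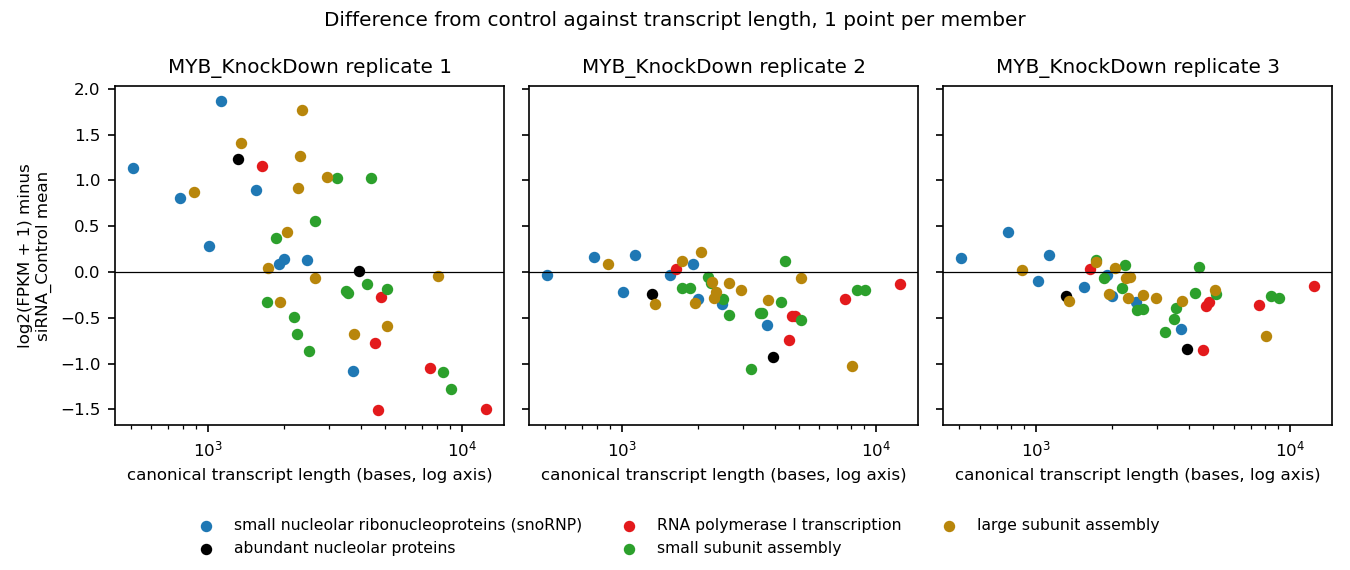
Each point is a member, placed by canonical transcript length (log axis, bases) and by log2(FPKM + 1) minus the siRNA_Control mean in MYB_KnockDown replicates 1, 2 and 3. In replicate 1 the points run from 1.86 at short transcripts to -1.50 at long ones, and replicates 2 and 3 stay within -1.05 and 0.44.

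Wild-type MYB was then compared with the knockdown, both under si2992, which asks what the introduced wild-type protein restores. In 12 libraries 11 members rose and 5 fell, against 20.6% and 16.9% of all tested genes. In 11 libraries 21 rose and 7 fell, against 25.3% and 19.9%. The median member lay at 0.17 and the median gene at 0.03. Groups did not overlap for 14 higher and 6 lower members (26.0% and 21.9% of all genes), or 25 and 7 in 11 libraries (34.3% and 28.5%). These changes share the knockdown libraries with the comparison to control, so the values of each are given side by side and not as support for each other.

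By role, the 11 that rose were 2 of 6 RNA polymerase I members, 5 of 14 small subunit factors, 2 of 13 large subunit factors, 1 of the NCL and NPM1 pair and 1 of 9 snoRNP proteins. MYBBP1A had 59.5, 56.7 and 48.7 FPKM in MYB-WT_Rescue, against 36.7, 37.5 and 34.7 in MYB_KnockDown, with every rescue library above every knockdown library. It rose by 0.58 (SE 0.11, adjusted p = 0.00232), a call lost in 1 of 23 alternatives, the removal of the length trend (0.0522; 1.66e-04 to 0.0522). DDX21 had 272.7, 301.9 and 291.0 FPKM in MYB-WT_Rescue and 96.7, 197.6 and 212.9 in MYB_KnockDown, a rise of 0.85 (adjusted p = 0.0175) or 0.49 without knockdown replicate 1 (5.80e-04). Its call was lost without MYB-WT_Rescue replicate 2 (0.0585; 2.09e-04 to 0.109 over alternatives). UTP20, whose promoter E-box is printed above, had 20.9, 23.5 and 22.9 FPKM in MYB-WT_Rescue and 6.12, 14.0 and 13.1 in MYB_KnockDown. It showed the largest rise of the members in 12 libraries, 1.03 (SE 0.23, adjusted p = 0.00631). Without knockdown replicate 1 the rise was 0.68 (2.83e-04; 1.06e-04 to 0.0644 over alternatives), below the rises of members such as WDR12 (1.27), DDX10 (1.23) and NCL (0.95). HEATR1, a scaffold that joins rRNA transcription and processing, rose by 0.89 with 47.2, 50.1 and 50.8 FPKM in MYB-WT_Rescue and 17.3, 33.0 and 31.6 in MYB_KnockDown (adjusted p = 0.00579). The small subunit factors WDR43, UTP15 and NOP14 rose by 0.61, 0.43 and 0.34 (adjusted p = 0.00673, 0.0117 and 0.0366). The WDR43 call was lost with only the 6 libraries compared (0.0626; 8.93e-05 to 0.0626 over alternatives). That of UTP15 was lost with only those 6 and with the length trend removed, where the change was 0.16 (0.438; 0.00121 to 0.438). That of NOP14 was lost in 11 of 23 alternatives, among them the length trend removed (0.19, 0.262) and leaving out siRNA_Control replicate 3, MYB_KnockDown replicate 2 or 3, D152V_Rescue replicate 1 or 3 or any MYB-WT_Rescue library (0.0501 to 0.136; 6.16e-04 to 0.275). NCL had 836.4, 986.5 and 805.8 FPKM in MYB-WT_Rescue and 837.0, 439.4 and 464.3 in MYB_KnockDown, where replicate 1 overlapped the rescue. Its rise of 0.65 (adjusted p = 0.0374) was lost on leaving out any library but MYB_KnockDown replicate 1, without which it was 0.95 (5.46e-05; 1.73e-05 to 0.199 over alternatives). WDR12 rose by 1.00 (adjusted p = 0.00398), but stood at 0.63 with the length trend removed (0.104; 2.18e-05 to 0.117 over alternatives). NOLC1 rose by 0.56 (0.0166), a call lost with only the 6 libraries compared and without MYB-WT_Rescue replicate 2 (0.0734; 9.82e-04 to 0.106). GNL3, the GTPase nucleostemin, rose by 0.38 (0.0335), a call lost with only the 6 libraries and without siRNA_Control replicate 1, MYB_KnockDown replicate 2 or MYB-WT_Rescue replicate 2 or 3 (0.00917 to 0.152).

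The 5 members that fell were short, with canonical transcripts of 507 to 2055 bases. NHP2 and NOP10, core proteins of H/ACA snoRNPs, had 139.0, 116.8 and 149.1 FPKM and 231.7, 210.2 and 243.4 FPKM in MYB-WT_Rescue, against 332.4, 213.2 and 257.4 FPKM and 759.6, 339.1 and 386.0 FPKM in MYB_KnockDown. No rescue library reached a knockdown library for either gene. NHP2 fell by 0.97 (SE 0.16, adjusted p = 0.00151) and NOP10 fell by 1.02 (SE 0.24, adjusted p = 0.00762). The NHP2 call held in all 23 alternatives, and that of NOP10 was lost with only the 6 libraries compared (0.0755; 9.49e-05 to 0.0755). FBL fell (-1.14), with 201.3, 193.6 and 254.7 FPKM in MYB-WT_Rescue and 1032.2, 322.4 and 322.3 in MYB_KnockDown (adjusted p = 0.0300), and stood at -0.58 without knockdown replicate 1 (0.00588). Leaving out MYB-WT_Rescue replicate 1 or 2 ended this call (0.0811 and 0.0922; 9.09e-04 to 0.133 over alternatives). NIP7 and NOP16, large subunit factors, fell (-0.40 and -0.52, adjusted p = 0.0166 and 0.0496), and the NOP16 call was lost in 16 of 23 alternatives. Against control the same 3 snoRNP genes lay lower in MYB-WT_Rescue too, without overlap: control libraries had 169.1, 194.0 and 208.6 FPKM for NHP2, 332.4, 351.0 and 354.9 for NOP10 and 272.8, 264.8 and 314.6 for FBL. None of these 3 passed that test in 12 libraries (changes of -0.50, -0.60 and -0.40, adjusted p = 0.0860, 0.153 and 0.584), and all 3 did in 11 (0.00623, 3.14e-04 and 0.0337; 1.49e-04 to 0.798 over their alternatives). Leaving out MYB-WT_Rescue replicate 2 ended the calls of DDX21, NOLC1, FBL, GNL3, NCL, NOP14 and NOP16, and replicate 3 those of NIP7, GNL3, NCL, NOP14 and NOP16.

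The D152V form was compared with the same knockdown libraries. In 12 libraries 2 members rose and 3 fell, against 13.0% and 12% of all tested genes, and in 11 libraries 11 rose and 5 fell, against 16.6% and 15.9%. The split in 12 libraries was 5 and 5 after quantile normalization (14.6% and 14.0% of all genes) and 1 and 4 with the length trend removed (11% and 11.7%). The median member lay at -0.01 and the median gene at 0.02. Groups did not overlap for 8 higher and 7 lower members (22.0% and 20.7% of all genes), or 16 and 11 in 11 libraries (29.6% and 27.6%). MYBBP1A had 52.1, 49.7 and 45.9 FPKM in D152V_Rescue and 36.7, 37.5 and 34.7 in MYB_KnockDown, without overlap, and rose by 0.43 (SE 0.11, adjusted p = 0.0169). Leaving out D152V_Rescue replicate 1 or 2 ended this call (0.0651 and 0.0606). So did removing the length trend, where the rise was 0.23 (0.195, with 0.00158 to 0.195 over alternatives). WDR12 had 144.0, 149.2 and 140.5 FPKM in D152V_Rescue and 129.5, 65.3 and 81.8 in MYB_KnockDown, and rose by 0.70 (adjusted p = 0.0312). Its call was lost without any library of D152V_Rescue or without MYB_KnockDown replicate 2 or 3 (0.0579 to 0.0899), and without MYB_KnockDown replicate 1 the rise was 0.97 (2.24e-04; 2.24e-04 to 0.343 over alternatives). With the length trend removed the rise of WDR12 was 0.38 and did not pass (limma adjusted p = 0.335). NHP2, NOP10 and FBL fell (-0.72, -0.99 and -1.21, adjusted p = 0.0115, 0.0143 and 0.0331), and D152V_Rescue held 154.8 to 167.9, 219.8 to 247.7 and 182.8 to 242.3 FPKM of them. Leaving out any D152V_Rescue library ended the FBL call (0.0597 to 0.0973), and leaving out replicate 2 that of NOP10 (0.0535). NCL stood at 630.2, 754.4 and 682.1 FPKM in D152V_Rescue, against 837.0, 439.4 and 464.3 in MYB_KnockDown, and did not pass in 12 libraries (adjusted p = 0.308) and passed in 11 (0.60, 0.00153; 2.14e-04 to 0.692 over alternatives). DDX21 had 239.0, 266.7 and 249.0 FPKM, above all 3 knockdown libraries, and its change of 0.65 did not pass in 12 libraries (0.0653) but did in 11 (0.29, 0.0160; 0.00416 to 0.225 over alternatives). POLR1A, POLR1B, DKC1, NPM1 and UBTF passed in neither fit.

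Both rescue lines were then set against each other, a comparison with no MYB_KnockDown library on either side. The form of MYB and its stable line cannot be told apart here, and the MYB levels of the lines, given below, differ too. In 12 libraries 1 member fell and 0 rose by limma, against 6.19% and 5.96% of all tested genes, with 4 lower and 1 higher at an unadjusted p under 0.05 (13.4% and 11.5%). With the replicate number as a block, an effect shared by all 4 groups, 1 rose (UTP14A) and 0 fell, against 6.93% and 7.04% of all genes. A paired fit of the 2 rescue groups alone was not run. The counts, higher and lower, were also 1 and 2 after quantile normalization (6.97% and 7.04%), 1 and 0 with median-ratio scaling (6.37% and 5.76%) and 1 and 1 with the length trend removed (7.10% and 7.43%). In 11 libraries, where knockdown replicate 1 no longer enters the shared estimate of spread, 15 fell and 1 rose (17.8% and 13.6% of all genes), or 22 and 1 with the block (22.5% and 17.4%). The values of the 2 rescue lines are the same in 12 and in 11 libraries, and the estimate of spread differs. The median member lay at -0.20 and the median gene at -0.03, and 37 of 44 members lay below 0. The share of all tested genes below 0 was not counted. Levels did not overlap for 22 lower and 3 higher members, against 24.3% and 18.3% of all genes.

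UBTF was the member that fell, with 43.4, 44.9 and 41.9 FPKM in D152V_Rescue and 55.0, 61.4 and 52.5 in MYB-WT_Rescue, without overlap (change of -0.37, SE 0.11, adjusted p = 0.0445). With the block the adjusted p was 0.0506, and the call was lost in 16 of 23 alternatives, among them leaving out any library but MYB_KnockDown replicates 1 and 2 (0.00354 to 0.175). UTP14A, a small subunit factor, ran the other way: it had 35.8, 40.1 and 37.8 FPKM in D152V_Rescue and 27.5, 29.9 and 22.1 in MYB-WT_Rescue, and the difference was 0.51 (SE 0.16, adjusted p = 0.0615, or 0.0397 with the block; 0.00110 to 0.202 over alternatives). LTV1, an export factor of the small subunit, had the lowest change, -0.45, with 104.0, 115.4 and 114.7 FPKM in D152V_Rescue and 140.2, 170.3 and 146.8 in MYB-WT_Rescue. It did not pass in 12 libraries (adjusted p = 0.0773) and passed in 11 (0.00288; 6.38e-04 to 0.263 over alternatives). UTP20 had 16.6, 17.8 and 15.8 FPKM in D152V_Rescue, below the 20.9, 23.5 and 22.9 in MYB-WT_Rescue (-0.40, adjusted p = 0.326; 0.00510 in 11 libraries, 0.00138 to 0.556 over alternatives). NCL and NPM1 were lower in D152V_Rescue without overlap, by -0.34 each: NPM1 had 1600.1, 1822.0 and 1833.1 FPKM there and 2019.8, 2468.8 and 2195.9 in MYB-WT_Rescue. They passed in 11 libraries (adjusted p = 0.0161 and 0.0148) and not in 12 (0.386 and 0.605; 0.00170 to 0.826 over their alternatives). By role, 8 of 14 small subunit factors were called lower in 11 libraries (HEATR1, LTV1, NOP14, PNO1, RRP12, UTP20, WDR43 and WDR75), against 2 of 13 large subunit factors (DDX18 and RRP1B), 2 of 6 RNA polymerase I members (POLR1A and UBTF) and 1 of 9 snoRNP proteins (GAR1). With the block in 11 libraries the same counts were 8, 6, 3 and 3, and whether the shares differ was not tested. FBL, DKC1, POLR1B and MYBBP1A passed in neither fit, and MYBBP1A differed by -0.15 (SE 0.11). MYB itself was lower in D152V_Rescue (change of -0.44, adjusted p = 0.0494, 0.0640 with the block; 0.00542 to 0.164 over alternatives), and so was MYC, with 127.4, 127.3 and 97.1 FPKM in D152V_Rescue and 193.8, 183.3 and 178.1 in MYB-WT_Rescue (change of -0.66, adjusted p = 0.0351, 0.0374 with the block; 7.51e-05 to 0.141 over alternatives). Their part in these values was not tested.

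**Figure D4:**
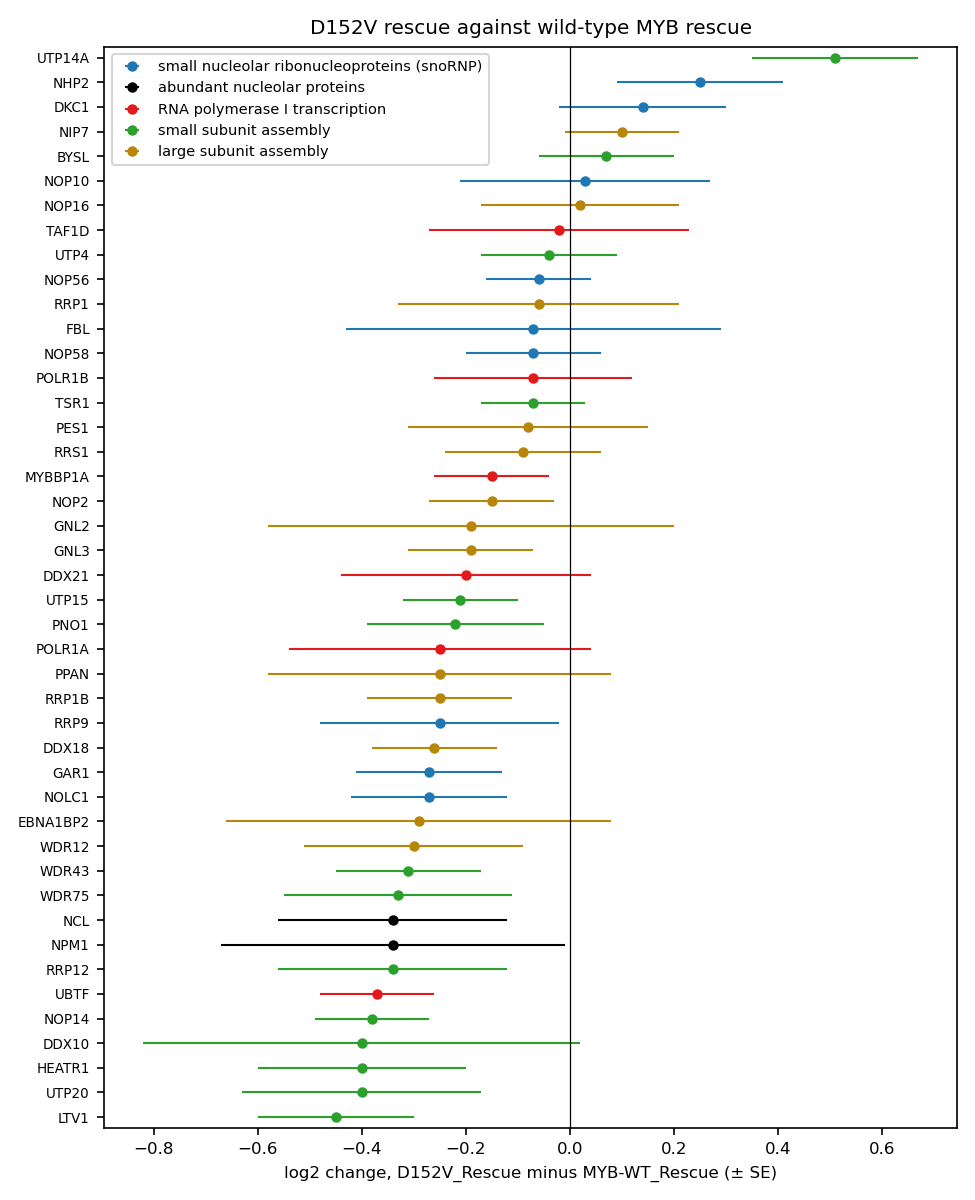
Points are the log2 change of each of the 44 members in D152V_Rescue minus MYB-WT_Rescue with its SE from the fit to 12 libraries, coloured by role. UTP14A lies highest at 0.51 and LTV1 lowest at -0.45, and 37 of 44 points lie left of 0.

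Each rescue line was last compared with siRNA_Control, which differs from it in both the construct and the siRNA. In D152V_Rescue 1 member fell and 0 rose by limma, against 4.94% and 4.61% of all tested genes, with 8 lower and 0 higher at an unadjusted p under 0.05 (12.1% and 10.2%). In 11 libraries 14 fell and 0 rose (16.4% and 11.2% of all genes). The median member lay at -0.15 and the median gene at -0.04, and levels did not overlap for 26 lower and 0 higher members, against 26.2% and 18.2% of all genes. UBTF was the called member, with 43.4, 44.9 and 41.9 FPKM in D152V_Rescue and 59.6, 66.9 and 60.9 in siRNA_Control, and fell by 0.51 (SE 0.11, adjusted p = 0.00999). Leaving out siRNA_Control replicate 2 alone among the 23 alternatives ended the call (0.0590; 4.35e-04 to 0.0590). MYBBP1A, NOLC1 and DDX18 lay lower without overlap and passed in 11 libraries (-0.36, -0.47 and -0.39, adjusted p = 0.0105, 0.00513 and 0.00221) but not in 12 (0.0636, 0.0873 and 0.0699; 5.06e-04 to 0.305 over their alternatives). NCL held 630.2, 754.4 and 682.1 FPKM in D152V_Rescue, all below the 804.0 to 883.3 in siRNA_Control (-0.28, adjusted p = 0.542; 0.0450 in 11 libraries, 0.0141 to 0.811 over alternatives).

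In MYB-WT_Rescue 1 member fell and 0 rose by limma, against 4.58% and 5.04% of all tested genes, with 3 lower and 1 higher at an unadjusted p under 0.05 (11.9% and 11.6%). In 11 libraries 5 fell and 6 rose (15.9% and 13.8% of all genes), and the split in 12 libraries was 2 higher and 3 lower after quantile normalization (6.31% and 5.68%) and 1 and 2 with the length trend removed (5.85% and 6.11%). The median member lay at 0.01, and levels did not overlap for 10 higher and 9 lower members (21.4% and 23.3% of all genes). UTP14A had 27.5, 29.9 and 22.1 FPKM in MYB-WT_Rescue and 44.4, 50.8 and 46.9 in siRNA_Control. It fell by 0.82 (SE 0.16, adjusted p = 0.00783), a call held in all 23 alternatives (1.14e-04 to 0.0409). The members that rose in 11 libraries were LTV1, UTP20, HEATR1, WDR75, WDR12 and EBNA1BP2, by 0.30 to 0.45, none of which passed in 12 libraries. MYBBP1A had 59.5, 56.7 and 48.7 FPKM, just below the lowest control library at 60.2, and passed in neither fit (-0.20, adjusted p = 0.292; 0.0208 to 0.641 over alternatives). NCL, NPM1, POLR1A, POLR1B and UBTF passed in neither fit.

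A wider list of 122 other genes of the pathway, all past the filter, was counted in the same fits. It was chosen from known roles, with earlier results of these data known. Genes named from it are given without their range over the 23 alternatives. In the knockdown against control 4 rose and 10 fell, against 3.94% and 7.38% of all tested genes (8 and 31 in 11 libraries, against 7.26% and 12.9%). POLR1F, a subunit of RNA polymerase I, had the largest fall in its list: 7.95, 10.6 and 9.51 FPKM in MYB_KnockDown, against 29.8, 34.6 and 29.2 in siRNA_Control (change of -1.64, SE 0.16, adjusted p = 5.00e-04). It stayed below control in both rescue lines, with 9.02 to 12.7 FPKM in D152V_Rescue and 13.1, 15.6 and 11.3 in MYB-WT_Rescue (changes of -1.41 and -1.17, adjusted p = 3.43e-04 and 0.00124). All 3 groups that received si2992 were thus below every control library. POLR1H, from the same list, ran the other way in the knockdown (change of 0.77, SE 0.19, adjusted p = 0.0289). It had 96.8, 62.0 and 53.4 FPKM in MYB_KnockDown and 36.8, 41.2 and 41.3 in siRNA_Control. EIF6, which keeps the subunits apart during large subunit maturation, had 135, 127 and 108 FPKM in MYB_KnockDown and 69.6, 73.2 and 77.4 in siRNA_Control, a rise of 0.73 (adjusted p = 0.00850). ZNHIT3, a snoRNP assembly factor, rose by 0.67 (adjusted p = 0.0122), and the small subunit factors MPHOSPH10 and UTP25 and the large subunit factor SDAD1 fell (-0.61, -0.64 and -0.62, adjusted p = 0.0249, 0.0142 and 0.0160). ISG20L2, TEX10, WDR36 and NUFIP1 fell too (-0.93, -0.70, -0.68 and -0.46, adjusted p = 0.0490, 0.0193, 0.0448 and 0.0463), and EXOSC1 rose (0.80, adjusted p = 0.0233). In MYB-WT_Rescue against knockdown 29 rose and 21 fell, against 20.6% and 16.9% of all genes (48 and 24 in 11 libraries, against 25.3% and 19.9%). EIF6 and ZNHIT3 fell there (-1.21 and -1.06), and MPHOSPH10, UTP25 and SDAD1 rose (0.96, 0.95 and 0.92). IMP3, POLR2L and POLR1H fell as well (-1.93, -1.44 and -1.08, limma adjusted p = 0.00246, 0.00389 and 0.00175). Without MYB_KnockDown replicate 1 these 3 falls were -1.35, -1.02 and -0.84. IMP3 had 12.1, 13.8 and 11.8 FPKM in MYB-WT_Rescue and 115, 32.8 and 34.2 in MYB_KnockDown. In D152V_Rescue against knockdown 8 rose and 23 fell, against 13.0% and 12% of all genes (16 and 30 in 11 libraries, against 16.6% and 15.9%). ZNHIT3 had 26.9, 27.2 and 21.8 FPKM in D152V_Rescue and 78.8, 78.6 and 67.2 in MYB_KnockDown (change of -1.53, adjusted p = 2.80e-05). NLE1, a large subunit factor, had 8.01, 7.67 and 6.88 FPKM in D152V_Rescue, 13.4, 12.9 and 15.4 in MYB-WT_Rescue, 19.4, 17.9 and 15.0 in MYB_KnockDown and 15.6, 17.2 and 13.1 in siRNA_Control. It was below all other groups in D152V_Rescue, with changes of -0.81, -1.11 and -0.93 against MYB-WT_Rescue, MYB_KnockDown and siRNA_Control (adjusted p = 0.00284, 5.05e-04 and 0.00157).

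Between the rescue lines 2 of the 122 rose and 11 fell in D152V_Rescue, against 5.96% and 6.19% of all genes (8 and 44 in 11 libraries, against 13.6% and 17.8%). LAS1L, a factor in cutting the spacer of the precursor, had 26.4, 30.2 and 28.2 FPKM in D152V_Rescue and 43.5, 49.1 and 44.8 in MYB-WT_Rescue (change of -0.68, SE 0.12, adjusted p = 0.00267). EXOSC10, the catalytic subunit of the nuclear exosome, had 41.0, 39.9 and 39.6 FPKM in D152V_Rescue and 58.7, 70.9 and 59.8 in MYB-WT_Rescue (change of -0.63, adjusted p = 0.00872). TAF1A, a subunit of the selectivity factor SL1, had 16.6, 13.4 and 13.4 FPKM in D152V_Rescue and 24.2, 28.8 and 24.8 in MYB-WT_Rescue (change of -0.80, adjusted p = 0.00821). Levels of all 3 genes did not overlap between the rescue lines. KRR1, a small subunit factor, had 65.1, 60.1 and 62.5 FPKM in D152V_Rescue, 88.2, 91.7 and 87.0 in MYB-WT_Rescue and 60.3, 61.6 and 63.0 in siRNA_Control. It fell by 0.50 between the rescue lines (adjusted p = 0.0191) and rose by 0.52 in MYB-WT_Rescue against control (adjusted p = 0.0197). Against control 0 rose and 7 fell in D152V_Rescue, against 4.61% and 4.94% of all genes (3 and 40 in 11 libraries, against 11.2% and 16.4%). At an unadjusted p under 0.05 the counts in 12 libraries were 2 and 22, against 10.2% and 12.1%. In MYB-WT_Rescue 2 rose and 3 fell, against 5.04% and 4.58% (13 and 23 in 11 libraries, against 13.8% and 15.9%).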

How the data were processed

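Poly(A) RNA of K-562 cells was sequenced in 12 libraries, 3 in each of 4 groups. The authors deposited FPKM values per gene and library. Per the submitters' processing notes, bcl2fastq 2.17.1.14, Trimmomatic 0.33, TopHat2 2.0.13, Cufflinks 2.2.1 and the build GRCh38 were used. Neither the annotation nor a strand setting is given there, so reads of overlapping or near-identical genes cannot be told apart. Low values were not whole multiples of 1 read (a median of 4.9% of ratios within 2%), so depth is unknown and no count model or interval is given.

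Genes with at least 1 FPKM in at least 3 libraries (13393 of 60658 rows) were fitted on log2(FPKM + 1) with limma 3.58.1 in R 4.3.3 (4 group means, 8 residual degrees of freedom, variance trend), and p-values were adjusted over all of them by Benjamini-Hochberg. The 6 contrasts share libraries. The fit was tested on simulated data with equal spread in all libraries. These hold no outlying library, so they do not test calls that hinge on MYB_KnockDown replicate 1. The 23 alternatives cover the pseudocount, filter, scaling, samples fitted, replicate block, transcript length and each left-out library; 3 were added after seeing the data. Same-numbered libraries of D152V_Rescue and MYB-WT_Rescue deviated together (r = 0.169, 0.153 and 0.233), so the replicate block is given for them. The block is an effect of the replicate number shared by all 4 groups. The members and lists were chosen with earlier results of these data known. Named members are those called in a contrast (up to 8 per direction), 8 taken for their role whatever their result, and the 2 highest and 2 lowest in each of the first 4 contrasts. From each of 5 other pathway lists, up to 3 called genes with the largest change were selected per contrast. Only a part of these is named outside the knockdown against control. Tables and figures used Python 3.11.15, pandas 2.3.3 and matplotlib 3.10.9. Lengths are those of canonical transcripts. BOP1 was not analysed here.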

Additional observations from a re-analysis of the deposited data

Results flagged for a closer look

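UBTF differed between the 2 rescue lines, each under the same siRNA against MYB: the log2 change of D152V_Rescue minus MYB-WT_Rescue was -0.37 (SE 0.11, limma adjusted p = 0.0445), with all 3 D152V_Rescue libraries below all 3 MYB-WT_Rescue libraries. It is listed because the test of the difference between the rescue lines passed, which it did narrowly: with the replicate block the adjusted p was 0.0506, and over 23 alternatives it ran from 0.00354 to 0.175.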

How the results depend on the processing

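The leading results moved with the settings of the fit. Of 28 called pairs of member and contrast, 28 held without MYB_KnockDown replicate 1, 26 after quantile normalization, 25 with the replicate block, 17 with the length trend removed and 5 with only the 6 libraries compared. The last has fewer samples. There, lower genes over all tested went from 988 to 12 in MYB_KnockDown against siRNA_Control. In D152V_Rescue against MYB-WT_Rescue, which holds no knockdown library, they went from 829 to 1838. The cause of these shifts was not tested. No direction of a called member turned. The fall of MYB in the knockdown held in all 23 alternatives (-2.05 to -1.81, and -2.05 to -1.86 without 1 library). Same-numbered libraries of D152V_Rescue and MYB-WT_Rescue deviated together at r of 0.153 or more. In the other 5 contrasts the lowest same-number r was -0.042 to 0.038, and the numbers were not taken as pairs. All same-number r were still above 0 in MYB_KnockDown against siRNA_Control (0.038, 0.132 and 0.09) and MYB-WT_Rescue against siRNA_Control (0.024, 0.051 and 0.349). In MYB-WT_Rescue against MYB_KnockDown they were 0.005, 0.03 and 0.132. The replicate block gave 0 higher and 5 lower members in MYB_KnockDown against siRNA_Control (587 and 1125 of all genes). It gave 11 and 4 in MYB-WT_Rescue against MYB_KnockDown (2967 and 2373). Depth is unknown, and 3 libraries a group limit the precision.

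In MYB_KnockDown against siRNA_Control, higher members numbered 0 (0 to 1 without 1 library). Here lower members numbered 4 (1 to 14 without 1 library), but 2 with no filter, 8 with quantile normalization, 2 with median-ratio scaling, 0 with only the 6 libraries compared, 21 with the block in 11 libraries and 15 with length trend removed in 11 libraries. Of all 13393 tested genes 528 were higher and 988 lower (31 to 1104 and 142 to 1725 without 1 library). Quantile normalization gave 888 and 1064, and median-ratio scaling gave 700 and 794. With the length trend removed in 12 libraries the counts were 501 and 836, and with no filter 218 and 520 of 28704. These counts were 4 and 12 with only the 6 libraries compared and 1240 and 2396 with the block in 11 libraries. With length trend removed in 11 libraries they were 815 and 1481. In MYB-WT_Rescue against MYB_KnockDown, higher members numbered 11 (6 to 21 without 1 library), but 1 with only the 6 libraries compared, 24 with the block in 11 libraries and 20 with length trend removed in 11 libraries. Here lower members numbered 5 (3 to 7 without 1 library), but 3 with no filter, 1 with only the 6 libraries compared and 3 with replicate block and length together. Of all 13393 tested genes 2765 were higher and 2266 lower (1805 to 3390 and 1389 to 2665 without 1 library). With no filter the counts were 2581 and 1913 of 28704, and with replicate block and length together 2504 and 2338. These counts were 958 and 731 with only the 6 libraries compared and 3928 and 2978 with the block in 11 libraries. With length trend removed in 11 libraries they were 3043 and 2599. In D152V_Rescue against MYB_KnockDown, higher members numbered 2 (0 to 11 without 1 library), but 1 with no filter, 5 with quantile normalization, 0 with only the 6 libraries compared, 1 with length trend removed, 1 with replicate block and length together, 12 with the block in 11 libraries and 7 with length trend removed in 11 libraries. Here lower members numbered 3 (1 to 6 without 1 library), but 5 with quantile normalization, 0 with only the 6 libraries compared and 8 with the block in 11 libraries. Of all 13393 tested genes 1745 were higher and 1610 lower (834 to 2221 and 795 to 2177 without 1 library). Quantile normalization gave 1957 and 1880, and no filter gave 1518 and 1203 of 28704. With the length trend removed in 12 libraries the counts were 1478 and 1564, and with replicate block and length together 1737 and 1690. These counts were 329 and 219 with only the 6 libraries compared and 2892 and 2466 with the block in 11 libraries. With length trend removed in 11 libraries they were 1917 and 1950. In D152V_Rescue against MYB-WT_Rescue, higher members numbered 0 (0 to 1 without 1 library), but 1 with quantile normalization, 1 with median-ratio scaling, 1 with only the 6 libraries compared, 1 with the replicate block, 1 with length trend removed, 1 with replicate block and length together, 1 with the block in 11 libraries and 1 with length trend removed in 11 libraries. Here lower members numbered 1 (0 to 15 without 1 library), but 2 with no filter, 0 with a mean of at least 5 FPKM, 2 with quantile normalization, 0 with median-ratio scaling, 7 with only the 6 libraries compared, 0 with the replicate block, 22 with the block in 11 libraries and 11 with length trend removed in 11 libraries. Of all 13393 tested genes 798 were higher and 829 lower (511 to 1825 and 492 to 2384 without 1 library). Quantile normalization gave 934 and 943, median-ratio scaling 853 and 771 and the replicate block 928 and 943. With the length trend removed in 12 libraries the counts were 951 and 995, and with replicate block and length together 1112 and 1145. No filter gave 958 and 1025 of 28704, and a mean of at least 5 FPKM gave 392 and 477 of 9206. These counts were 1437 and 1838 with only the 6 libraries compared and 2324 and 3010 with the block in 11 libraries. With length trend removed in 11 libraries they were 1779 and 2252. In MYB-WT_Rescue against siRNA_Control, higher members numbered 0 (0 to 6 without 1 library), but 2 with quantile normalization, 5 with only the 6 libraries compared, 1 with length trend removed, 1 with replicate block and length together, 9 with the block in 11 libraries and 6 with length trend removed in 11 libraries. Here lower members numbered 1 (1 to 5 without 1 library), but 3 with quantile normalization, 4 with only the 6 libraries compared, 2 with length trend removed, 2 with replicate block and length together, 10 with the block in 11 libraries and 4 with length trend removed in 11 libraries. Of all 13393 tested genes 675 were higher and 614 lower (366 to 1850 and 308 to 2123 without 1 library). Quantile normalization gave 845 and 761. With the length trend removed in 12 libraries the counts were 783 and 818, and with replicate block and length together 899 and 970. These counts were 1638 and 1874 with only the 6 libraries compared and 2473 and 2747 with the block in 11 libraries. With length trend removed in 11 libraries they were 1696 and 2116. In D152V_Rescue against siRNA_Control, higher members numbered 0 (0 to 0 without 1 library). Here lower members numbered 1 (0 to 14 without 1 library), but 2 with quantile normalization, 15 with only the 6 libraries compared, 4 with the replicate block, 5 with length trend removed, 6 with replicate block and length together, 16 with the block in 11 libraries and 12 with length trend removed in 11 libraries. Of all 13393 tested genes 618 were higher and 661 lower (376 to 1506 and 349 to 2200 without 1 library). Quantile normalization gave 777 and 730, median-ratio scaling 700 and 573 and the replicate block 740 and 759. With the length trend removed in 12 libraries the counts were 755 and 872, and with replicate block and length together 914 and 1009. These counts were 1462 and 2113 with only the 6 libraries compared and 1993 and 2868 with the block in 11 libraries. With length trend removed in 11 libraries they were 1476 and 2178.

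The counts below for the other pathway genes are to be read beside the counts over all tested genes just given for the same contrast and setting. Those counts over all genes moved with the setting too. In MYB_KnockDown against siRNA_Control, higher other pathway genes numbered 4 (0 to 11 without 1 library), but 2 with no filter, 9 with quantile normalization, 0 with only the 6 libraries compared, 2 with length trend removed, 9 with the block in 11 libraries and 8 with length trend removed in 11 libraries. Here lower other pathway genes numbered 10 (1 to 31 without 1 library), but 1 with only the 6 libraries compared, 44 with the block in 11 libraries and 25 with length trend removed in 11 libraries. In MYB-WT_Rescue against MYB_KnockDown, higher other pathway genes numbered 29 (16 to 48 without 1 library), but 7 with only the 6 libraries compared and 55 with the block in 11 libraries. Here lower other pathway genes numbered 21 (12 to 29 without 1 library), but 6 with only the 6 libraries compared. In D152V_Rescue against MYB_KnockDown, higher other pathway genes numbered 8 (2 to 16 without 1 library), but 13 with quantile normalization, 0 with only the 6 libraries compared, 5 with length trend removed, 5 with replicate block and length together, 25 with the block in 11 libraries and 13 with length trend removed in 11 libraries. Here lower other pathway genes numbered 23 (9 to 33 without 1 library), but 13 with no filter and 4 with only the 6 libraries compared. In D152V_Rescue against MYB-WT_Rescue, higher other pathway genes numbered 2 (0 to 8 without 1 library), but 1 with a mean of at least 5 FPKM, 5 with only the 6 libraries compared, 10 with the block in 11 libraries and 8 with length trend removed in 11 libraries. Here lower other pathway genes numbered 11 (5 to 44 without 1 library), but 31 with only the 6 libraries compared, 52 with the block in 11 libraries and 36 with length trend removed in 11 libraries. In MYB-WT_Rescue against siRNA_Control, higher other pathway genes numbered 2 (0 to 13 without 1 library), but 4 with quantile normalization, 11 with only the 6 libraries compared, 1 with length trend removed, 1 with replicate block and length together, 16 with the block in 11 libraries and 10 with length trend removed in 11 libraries. Here lower other pathway genes numbered 3 (2 to 23 without 1 library), but 20 with only the 6 libraries compared, 28 with the block in 11 libraries and 19 with length trend removed in 11 libraries. In D152V_Rescue against siRNA_Control, higher other pathway genes numbered 0 (0 to 3 without 1 library), but 2 with quantile normalization, 1 with median-ratio scaling, 3 with only the 6 libraries compared, 1 with length trend removed, 1 with replicate block and length together, 3 with the block in 11 libraries and 3 with length trend removed in 11 libraries. Here lower other pathway genes numbered 7 (4 to 40 without 1 library), but 11 with quantile normalization, 36 with only the 6 libraries compared, 52 with the block in 11 libraries and 37 with length trend removed in 11 libraries.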
